A study of Sus scrofa with 14 samples.

Results

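The genes described here were those on only in the late-passage sample of pESCLC-FL6i, a line of porcine embryonic stem cell-like cells. They had a normalized count of at least 40 in that sample, collected at passage 9, and below 15 in each of the other 13 samples, and 76 of 19588 genes met both limits. The genes were chosen by these measured values, so their high level at passage 9 and their low level elsewhere are a description, and no test of that difference is given. A gene symbol was found for 43 of them, and the other 33 are known by identifier alone. A normalized count is the number of reads on a gene divided by 1 size factor per sample, and it is not divided by gene length. In the passage 9 sample 1 normalized count stood for 0.382 reads, so that the genes with the lowest value there had 16 reads.

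The study asked whether media with added inhibitors keep porcine pluripotent cells in a naïve-like state, and polyadenylated RNA was sequenced from 14 samples in 7 groups of 2. All were grown over irradiated mouse embryonic fibroblasts. The pESCLC-primary samples were outgrowths of blastocysts in F, a medium with FGF2. The pESCLC-F samples were lines kept in F, both at passage 2. The pESCLC-FLB2i samples came from line B1 at passages 3 and 6, in a medium with FGF2, LIF, BMP4 and inhibitors of GSK3A and TGFB1, and these cells had been kept in FL6i before they were moved to FLB2i. The pESCLC-FL6i samples came from line C2 at passages 3 and 9, and had been moved from F to FL6i. That medium held FGF2, LIF and inhibitors of MAPK14, MAPK8, TGFB1, GSK3A, MAP2K1 and BMP. In the paper, FLB2i and FL6i are both built on a human naïve stem cell medium whose base holds insulin and IGF1. The Lv-piPSC-F samples were induced pluripotent cells made with lentiviral factors and kept in F, the second of them at passage 46. The Epi-piPSC groups were induced from fetal fibroblasts with episomal plasmids, and were sequenced at passages 9 and 12 in FLB2i and at passages 12 and 11 in FL6i. By their labels, the duplicates of pESCLC-FLB2i and of pESCLC-FL6i were thus an earlier and a later passage of 1 line. Passage 9 of pESCLC-FL6i was represented by 1 sample.

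The passage 9 sample had 6193659 reads on genes, the fewest of the 14, against 15179200 at passage 3 and up to 58878377 in Lv-piPSC-F 2. Although both pESCLC-FL6i samples carry the label of line C2, they differed in RNA from the Y chromosome. EIF1AY, a Y-linked translation factor, was at 86.5 normalized counts (33 reads) at passage 9 and at 7.34 (7 reads) at passage 3. Between 526 and 863 were found in the Lv-piPSC-F and Epi-piPSC-FL6i samples, 270 in pESCLC-primary 1, and 5.53 to 15.7 in the other 7 samples. KDM5D, a Y-linked histone demethylase named here after its values were seen, was at 26.2 (10 reads) and at 0. The labels give no sex for any sample, and what part a mixture or another source of RNA had in the passage 9 sample was not tested. All values given for the 76 genes rest on this 1 library.

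Pluripotent cells in culture can leave the pluripotent state and take on features of embryonic tissues, among them neural ones. In the developing brain, neural progenitors give rise first to neurons and later to astrocytes and oligodendrocytes, and patterning factors such as EN1 mark where along the neural tube a progenitor lies. AQP4 and GFAP are known for their expression in astrocytes, OLIG1 and OLIG2 for theirs in the oligodendrocyte lineage.

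At passage 9 the 76 genes ranged from 41.9 to 783 normalized counts with a median of 66.8, which corresponded to 16 to 299 reads with a median of 25.5. Of these genes, 16 were at 100 or more, 57 at 50 or more and 19 below 50. The 10 highest held 38.9% of the reads on the 76 genes. The lower end of the exact 95% Poisson interval, which covers counting error only, lay at or above 40 for 43 of the 76 genes. The rule held these genes below 15 in every other sample, and 36 of the 76 reached 10 or more in at least 1 of those samples. The highest value of each gene outside the passage 9 sample had a median of 9.85 and ranged from 1.10 to 14.8. The passage 9 value exceeded that highest other value 7.99-fold at the median (2.85-fold to 133-fold). No gene was at 0 in all 13 other samples, and the median gene had 0 reads in 4 of them. In bulk samples, fewer cells of a type and less RNA per cell cannot be told apart, so a low value in the other samples may stand for either.

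AQP4, the main water channel of astrocytes, had the highest normalized count of the 76. It stood at 783 at passage 9 (299 reads, 95% interval 697 to 877) and at 0 at passage 3, which is at least 249-fold higher against a floor of 3 reads. The pESCLC-primary samples had 5.90 and 5.47, pESCLC-F had 2.09 and 3.03, pESCLC-FLB2i had 0.769 and 1.97, Lv-piPSC-F had 3.30 and 3.13, Epi-piPSC-FLB2i had 4.14 and 4.61, and neither Epi-piPSC-FL6i sample had a read. Both pESCLC-primary samples were thus above the other 11, at a few reads each. EN1, a homeobox factor of the midbrain-hindbrain border, was at 351 at passage 9 (134 reads, 294 to 416) and at 8.39 at passage 3, 41.8-fold lower (95% interval of the ratio 20.6 to 98.9, counting error only). For EN1 the pESCLC-primary samples had 9.84 and 5.47, pESCLC-F had 5.23 and 1.01, pESCLC-FLB2i had 0.769 and 1.97, Lv-piPSC-F had 0 and 10.4, Epi-piPSC-FLB2i had 1.03 and 0, and Epi-piPSC-FL6i had 8.69 and 4.99. A low EN1 signal was therefore spread over several groups, in duplicates that often differed from each other. IGF1, the insulin-like growth factor that acts through IGF1R, was at 307 at passage 9 (117 reads, 253 to 367) and at 0 at passage 3, at least 97.4-fold higher. For IGF1 the pESCLC-primary samples had 3.93 and 0, pESCLC-F had 5.23 and 7.08, Lv-piPSC-F had 0 and 13.9, Epi-piPSC-FLB2i had 3.10 and 2.77, Epi-piPSC-FL6i had 3.86 and 8.99, and both pESCLC-FLB2i samples were at 0. IGF1 thus had no read in the passage 3 sample of pESCLC-FL6i or in pESCLC-FLB2i.

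**Figure D1:**
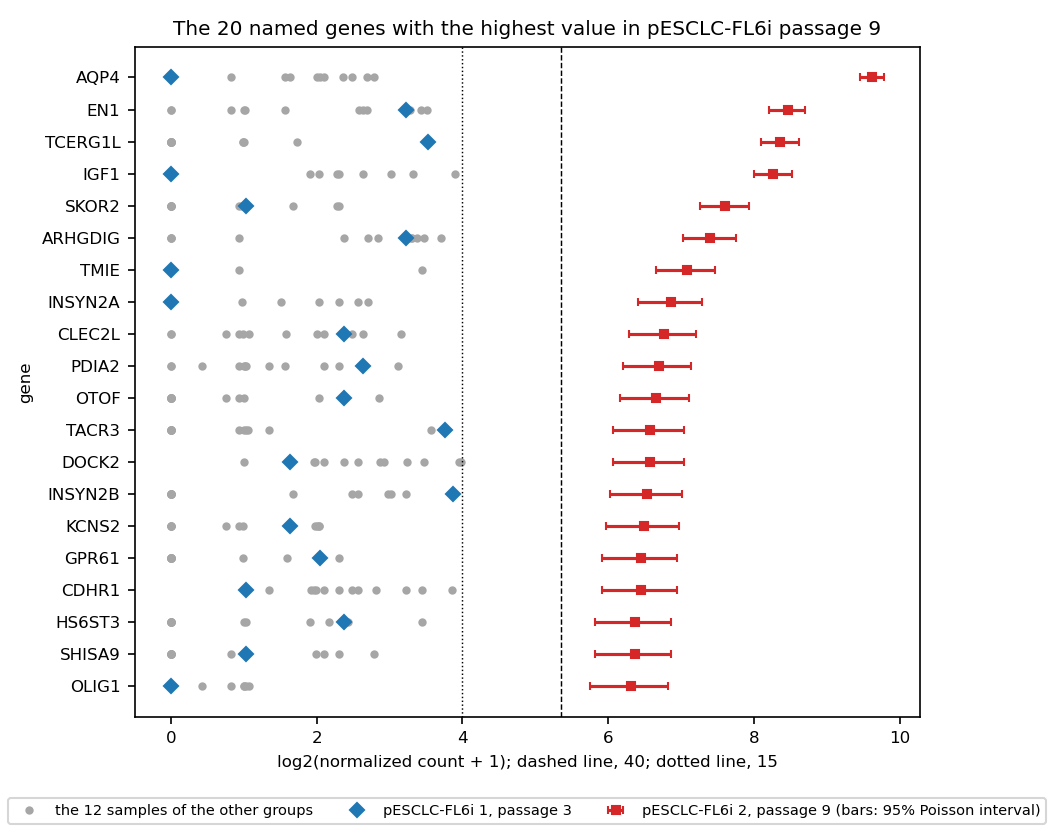
The 20 genes with a symbol and the highest normalized count in pESCLC-FL6i at passage 9 (rows), on the log2(normalized count + 1) scale (horizontal axis); red squares are passage 9 with 95% Poisson intervals, blue diamonds passage 3, and grey points the 12 samples of the other groups. From AQP4 at 783 to OLIG1 at 78.6, every interval lies to the right of the dashed line at 40, and every other sample to the left of the dotted line at 15.

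Sorted by what they encode, a grouping made from textbook knowledge after the values were seen, 37 of the 43 genes with a symbol fell into 6 classes of 4 to 10 genes. Transcription factors and corepressors counted 4, and all 4 have known roles in the neural tube or brain. Beside EN1 there was SKOR2, a corepressor of the cerebellum, at 194 at passage 9 and 1.05 at passage 3, with 3.85 and 3.94 in pESCLC-FLB2i and at most 2.20 in the other groups. The ratio of 185 between the passages rests on 1 read at passage 3, and its 95% interval ran from 32.2 to 7398. OLIG1, a basic helix-loop-helix factor of the oligodendrocyte lineage, was at 78.6 (30 reads) at passage 9 and at 0 at passage 3, at least 24.98-fold higher. No other sample exceeded 1.10 for OLIG1, the lowest such limit among the 76 genes, and 7 of the 13 were at 0. DBX1, a homeobox factor of ventral interneuron progenitors, was at the other end. It stood at 41.9 (16 reads) at passage 9 and 14.7 (14 reads) at passage 3, a ratio of 2.85 (1.31 to 6.32), and was found in all 13 other samples, with a median of 6.16. This was the smallest ratio to passage 3 of the 76.

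Secreted factors and matrix proteins counted 6, with a median of 61.6 at passage 9 and of 0 at passage 3. After IGF1 came GDF5, a ligand of the BMP family in joint development, at 73.4 at passage 9, 3.15 at passage 3 and at most 6.61 elsewhere. VEGFD, a ligand that drives growth of lymphatic vessels, was at 68.1 at passage 9 and 0 at passage 3, at least 21.6-fold higher. It was at 11.8 and 13.1 in pESCLC-primary and at 10.5 and 11.13 in pESCLC-F, against 0 and 2.96 in pESCLC-FLB2i and 1.84 to 7.99 in the induced lines. VEGFD was thus low but present in the embryo-derived cells kept in F. FIBIN was at 55.0, MSTN, the inhibitor of muscle growth myostatin, at 44.5, and MATN4, a matrilin of the extracellular matrix, at 41.9. MSTN and MATN4 had no read at passage 3.

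Receptors coupled to G proteins counted 5, with a median of 60.3. TACR3, the receptor of neurokinin B, was at 94.3 at passage 9 and 12.6 at passage 3, 7.49-fold lower (3.81 to 15.8). The second pESCLC-FLB2i sample had 10.8 and the first 1.54, and no other sample exceeded 1.09. TACR3 reads outside the passage 9 sample thus came mostly from the passage 3 sample and the second pESCLC-FLB2i sample. The Epi-piPSC samples, also in media with inhibitors, had 0 and 0.922 in FLB2i and 0 and 0.999 in FL6i. GPR61, an orphan receptor, was at 86.5, PROKR1, a prokineticin receptor, at 60.3, and HTR7, a serotonin receptor, at 57.6. HTR7 and PROKR1 reached 13.2 and 12.1 in Lv-piPSC-F 1.

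Synaptic and exocytotic proteins counted 5, with a median of 91.7. INSYN2A, a factor of the inhibitory synapse, was at 115 at passage 9 and 0 at passage 3, at least 36.6-fold higher, and at most 5.50 elsewhere. INSYN2B, its relative, was at 91.7 at passage 9 and 13.6 at passage 3, a ratio of 6.72 (3.47 to 13.9). These relatives therefore differed in their level at passage 3. Otoferlin, encoded by OTOF and needed for exocytosis at the inner hair cell synapse, was at 99.6 at passage 9 and 4.20 at passage 3. SHISA9, an auxiliary protein of AMPA receptors, was at 81.2, and SNCB, beta-synuclein, at 76.0.

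Channels and other membrane proteins counted 7, with a median of 89.1. After AQP4 came TMIE, known for mechanotransduction in hair cells, at 134 at passage 9, 9.85 in the second pESCLC-FLB2i sample and 0 in 11 of the other 13 samples. RefSeq annotates the porcine TMIE locus as a long noncoding RNA. CLEC2L, a lectin-like protein of the brain, was at 107, and KCNS2, a potassium channel subunit that is silent by itself, at 89.1. CDHR1, a cadherin of photoreceptors, was at 86.5, TMEM196 at 73.4 and LINGO3 at 68.1.

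Enzymes and signalling proteins formed the broadest class, with 10 genes and a median of 65.5. ARHGDIG, an inhibitor of small GTPases, was at 168 at passage 9 and 8.39 at passage 3, a ratio of 19.98 (9.55 to 48.3). PDIA2, a protein disulfide isomerase, was at 102 and 5.24. Several members of this class are known from tissues other than brain. DOCK2 (94.3), an activator of Rac in leukocytes, PLEK (49.8), which encodes pleckstrin, ACP5 (68.1), the acid phosphatase of osteoclasts, and SI (62.9), the sucrase of the intestinal brush border, were among them. Of 13 myeloid markers found, 6 were at 40 or more at passage 9, with 2 of them, CSF1R and LAPTM5, 8-fold higher than at passage 3 and none lower. SPI1, the myeloid transcription factor and the most abundant of them, was at 307 at passage 9 and 38.8 at passage 3, and CD68, TYROBP and C1QA were at 0 at passage 9. The list summed to 810 and 248, and to between 289 and 952 in the other 12 samples, and its part in the level of these genes was not tested. The class also held HS6ST3 (81.2), a heparan sulfate sulfotransferase, NRK (62.9) and PDE1A (49.8), a phosphodiesterase dependent on calmodulin. A further 6 genes fitted no class. TCERG1L stood out among these at 327 (125 reads, 273 to 390), against 10.5 at passage 3, a ratio of 31.2 (16.4 to 66.7), and at most 2.31 elsewhere. KCTD4 was at 52.4 and, with 14.7 at passage 3, had a ratio of 3.57 (1.71 to 7.64). SAMD9 was at 52.4, and LYPD4, LRRC71 and ADIRF were each at 44.5. Of the 33 genes without a symbol, ENSSSCG00000006919 at 215 and ENSSSCG00000033103 at 199 were the highest, and their median was 57.6.

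**Figure D2:**
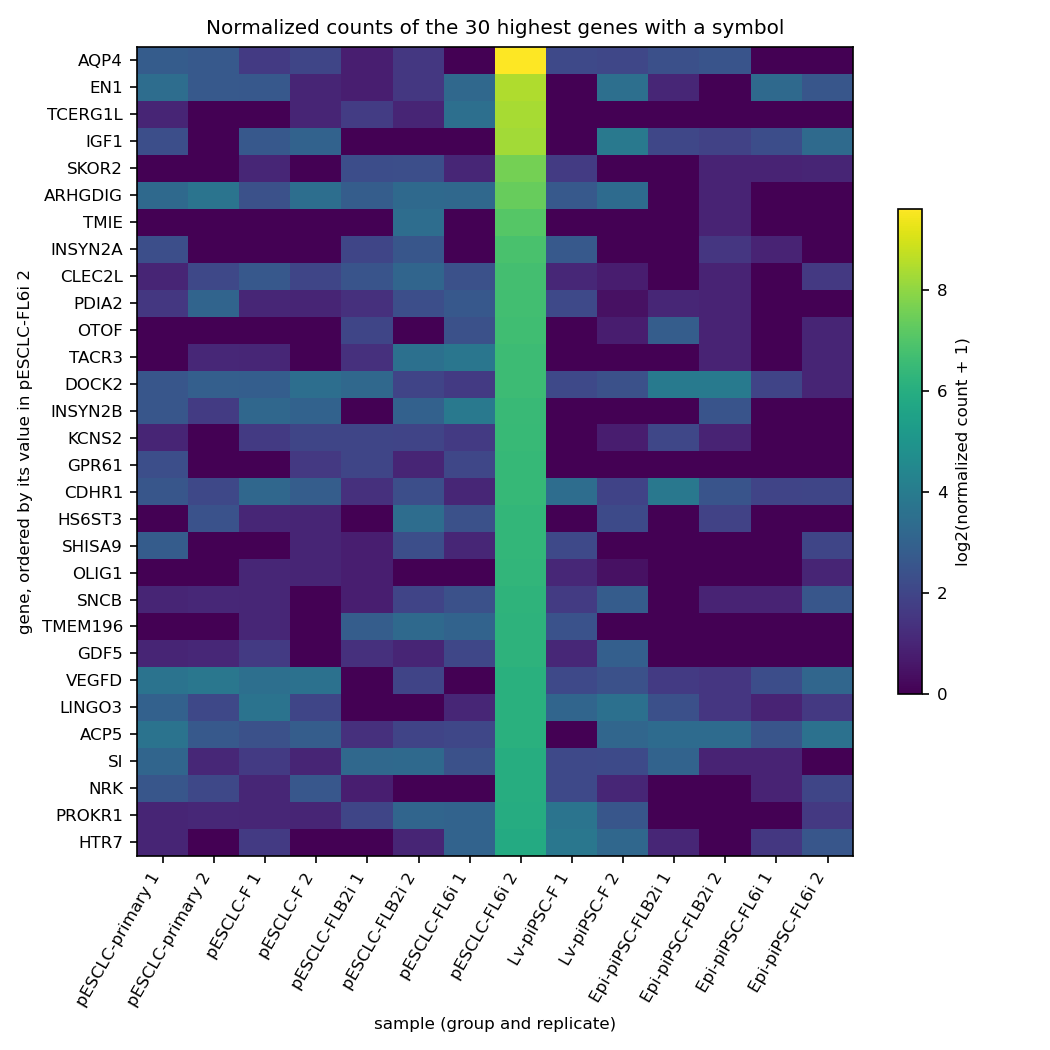
Normalized counts of the 30 highest genes with a symbol (rows, ordered by their value at passage 9) in the 14 samples (columns), with color giving log2(normalized count + 1). The passage 9 column, pESCLC-FL6i 2, runs from 783 for AQP4 to 57.6 for HTR7, and no other cell of the map exceeds 14.8.

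At passage 3 the limits of the rule held all these genes below 15, and they differed in how far below. Of the 76, 22 had 0 reads there, 20 had 1 to 3 and 34 had more than 3, with a median of 3.15 normalized counts and a highest value of 14.7. On the log2(normalized count + 1) scale the median difference between passage 9 and passage 3 was 4.53 (1.45 to 9.62). An 8-fold or larger difference, with at least 40 normalized counts in the higher sample, was found for 61 of the 76 genes. Among all 13221 genes with at least 40 in either passage, 684 (5.17%) were at least 8-fold higher at passage 9 and 255 (1.93%) at least 8-fold lower. The choice of the genes fixed this direction, and nothing is read from it. Summed over the 76 genes, the passage 9 sample had 7309 normalized counts, 0.045% of its reads, and the passage 3 sample 309.

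The rule kept these genes low in every other sample, whatever its passage or medium, so that the sums given next are a description. Of the other samples, 5 were labelled passage 9 or later, and their sums over the 76 genes lay between 136 and 270. The Epi-piPSC-FL6i samples, in the same medium and at passages 12 and 11, had sums of 136 and 223, and 37 of the 76 genes were below 5 in all 3 other samples in FL6i. The highest sum outside the passage 9 sample was 330, in the second pESCLC-FLB2i sample, against 204 in the first. Of the 76 genes, 48 were higher in the second than in the first of these and 22 lower. The same split was not counted over all genes, so no trend is read from it. The sample with the highest value outside passage 9 was the passage 3 sample for 15 genes, the second pESCLC-FLB2i sample for 14 and Lv-piPSC-F 2, the deepest library, for 11. Sums in the remaining samples were 199 and 148 for pESCLC-primary, 195 and 181 for pESCLC-F, 150 and 270 for Lv-piPSC-F and 173 and 147 for Epi-piPSC-FLB2i.

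Other samples had genes of their own by the same limits. The first Lv-piPSC-F sample had 175, the second pESCLC-FLB2i sample 15, the passage 3 sample of pESCLC-FL6i 13 and Lv-piPSC-F 2 had 5, and each of the other 9 samples had 0 to 2. The passage 9 sample therefore held the second largest number. When both duplicates of a group had to be at 40 or more and the other 12 samples below 15, pESCLC-FL6i had 2 such genes, against 1 to 20 in the other groups. At the lowest depth of all, 1 read in the passage 9 sample is worth more normalized counts than in any other, and the part of depth in its number was not tested. The genes on only at passage 9 were a small part of the 12686 genes at 40 or more in that sample, of which 9108 were at 40 or more in all 14 samples.

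**Figure D3:**
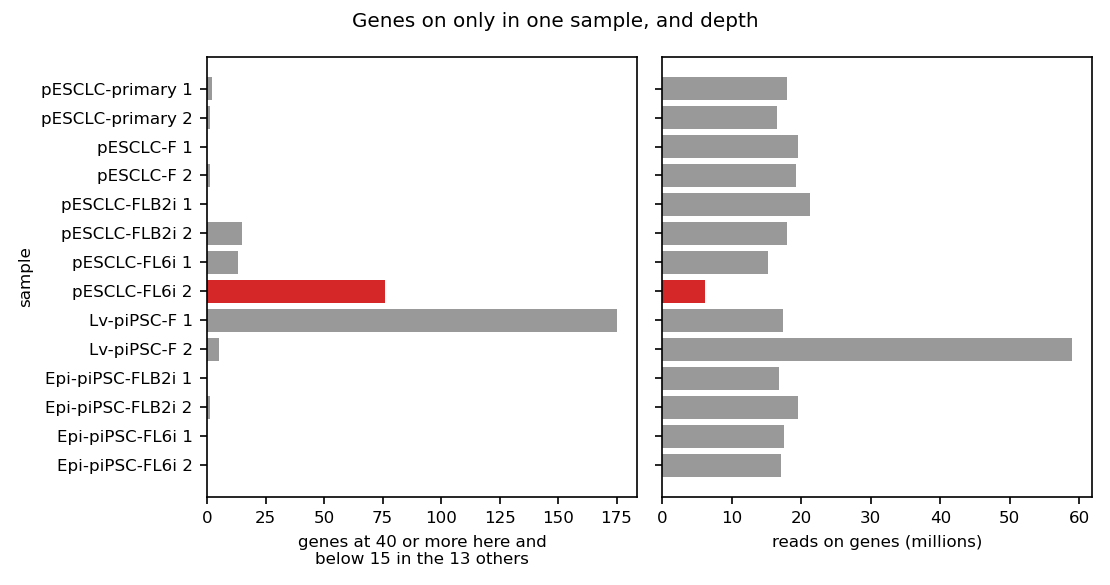
Left, number of genes at 40 or more normalized counts in 1 sample and below 15 in the other 13; right, reads on genes, for each of the 14 samples, with pESCLC-FL6i at passage 9 in red. The red bar on the left reaches 76, second to the 175 of Lv-piPSC-F 1, while its bar on the right is the shortest.

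Lists of genes were read in the same samples, 40 in all, and described by counts and summed normalized counts. They held markers of differentiated cells, of pluripotency and of germ cells, targets of signalling pathways, stress and interferon genes, and HOX, imprinted and sex-linked genes. For 1 list, X inactivation, no symbol was matched, and it was not analysed here. The passage 9 sample stood highest of the 14 for fibroblast and mesenchyme markers, and all 15 of these markers found were at 40 or more. Of these, 12 were at least 8-fold higher than at passage 3 and none lower, with a median log2 difference of 6.91 beside 0.06 over all 13221 genes. Their sum was 407749 at passage 9, 44303 at passage 3, and 57202 and 185085 in the pESCLC-FLB2i samples. COL1A1, a chain of type I collagen and the most abundant, was at 155568 at passage 9 and 165 at passage 3. COL1A2 was at 73812 and 614, COL3A1, of type III collagen, at 53973 and 29.4, and SPARC, a matrix glycoprotein, at 52432 and 4553. All 3 collagen genes thus lay far above their level at the earlier passage. Of 7 smooth muscle markers, 5 were 8-fold higher, led by ACTA2 at 3720 and 156. How far cells of these kinds, or RNA of the mouse feeder fibroblasts aligned to pig genes, bear on the 76 genes was not tested.

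Among 11 markers of glia and Schwann cells, 2 were 8-fold higher at passage 9 and none lower, namely AQP4, which the rule had chosen for being high there, and GFAP. GFAP, the intermediate filament of astrocytes and the most abundant of them, was at 18931 at passage 9, 52.4 at passage 3, and 268 and 8860 in pESCLC-FLB2i. The glutamate transporters of astrocytes SLC1A2 and SLC1A3 were at 1444 and 1446 at passage 9 and at 263 and 261 at passage 3, and SLC1A3 reached 5940 in the second pESCLC-FLB2i sample. The second pESCLC-FLB2i sample had GFAP and SLC1A3 without AQP4, which was at 1.97 there. MOG, a marker of myelin, was at 0 at passage 9, and the list summed to 23636 against 1717. AQP4 was the only one of the 76 genes in any of the 40 lists.

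All 27 neuron markers found were at 40 or more at passage 9, but 4 were 8-fold higher and none lower, with a median log2 difference of 1.43. The list summed to 139561 at passage 9 and 88484 at passage 3, and TUBB3, a neuronal tubulin, was nearly level at 33041 and 31234. Of 11 neural progenitor markers, 1 was 8-fold higher and 3 lower at passage 9. The progenitor factors SOX3, HES5 and DLL3 were at 21.0, 41.9 and 55.0 against 993, 1088 and 1041. OLIG2, the neighbor and relative of OLIG1, was at 31.4 at passage 9 (12 reads), 1.05 at passage 3 and at most 2.20 elsewhere, so it fell short of the limit of 40. Of 28 HOX genes found, none was 8-fold higher and 2 were lower. Of the 10 core pluripotency markers, 3 were found, and at passage 9 NANOG was at 7.86 and LIN28A and PRDM14 at 0. Of 10 naïve markers found, 4 were at 40 or more at passage 9 and 3 were at 0. KLF4, KLF5 and KLF2 were 8-fold higher, at 1653, 304 and 110 against 21.0, 6.29 and 1.05, and no naïve marker was 8-fold lower.

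Target genes of the pathways that the medium acts on did not move as 1 block. Of 16 MEK and ERK targets at 40 or more in either passage, 6 were at least 8-fold higher at passage 9 and none lower, with the inhibitor of MAP2K1 in the medium at both passages. The most abundant was FOS, at 4388 and 17.8. Of 12 LIF and STAT3 targets, 4 were 8-fold higher and none lower, JUNB among them at 1933 and 50.3. Of 15 BMP and TGFB targets, 3 were 8-fold higher and none lower, and of 11 WNT targets, 3 were 8-fold lower and none higher. None of these targets was among the 76 genes. Immediate early genes, a list made after the values were seen that shares FOS and JUNB with these, moved alongside, with 7 of 11 at least 8-fold higher at passage 9, and of 10 cell cycle genes, also listed then, 7 were at least 8-fold lower. Their part in the values of the targets and of the 76 genes was not tested.

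**Figure D4:**
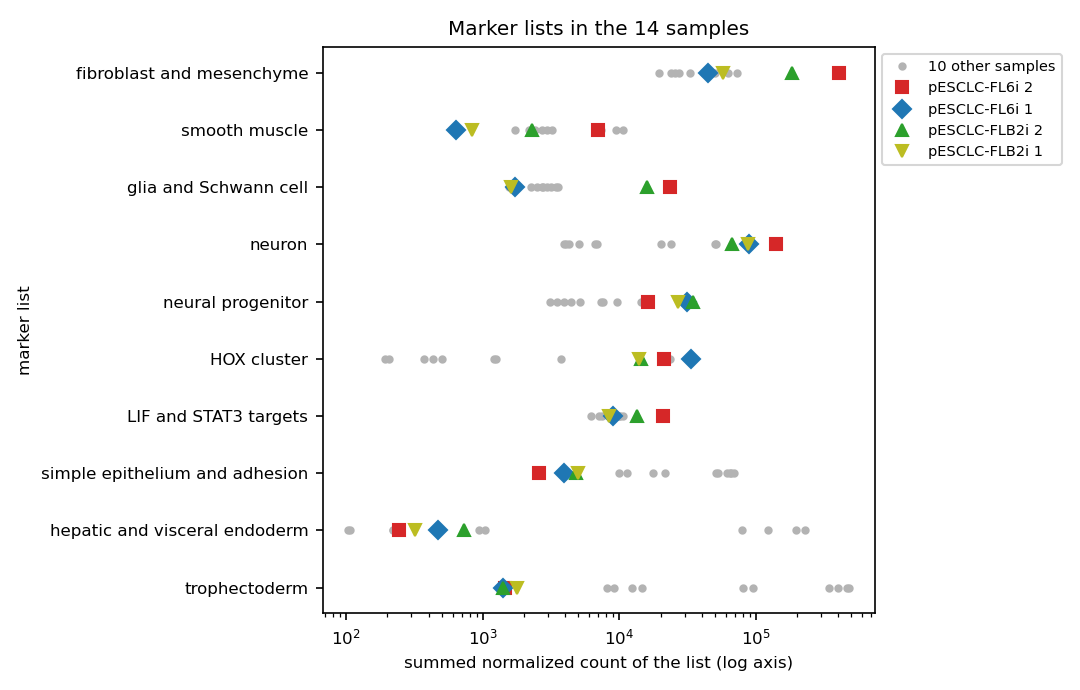
Summed normalized counts of 10 marker lists (rows) on a log axis in the 14 samples, with the pESCLC-FL6i and pESCLC-FLB2i samples in color and the other 10 in grey. The red square, passage 9, lies at 407749 for fibroblast and mesenchyme markers and at 23636 for glia, to the right of all other samples, and to the left of passage 3 for neural progenitor and HOX genes.

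The comparisons of groups in the study average both passages of pESCLC-FL6i and therefore dilute genes on in 1 of them. The pESCLC-FL6i samples were first compared with pESCLC-primary by limma, over the 14820 genes that reached 10 normalized counts in 2 or more of the 4 samples. A gene was called when it differed by 3 or more on the log2 scale and its p, adjusted by Benjamini-Hochberg, was not above 0.05. In this comparison 906 genes (6.11%) were called higher and 603 (4.07%) lower. Only 13 of the 76 genes entered it, through their level at passage 3 or in pESCLC-primary, and 2 of these 13 were called higher. The rule had chosen these genes on the same samples, so the calls are counted beside the share of all genes called and nothing is read from them. One of the 2 was KCTD4, at 14.7 and 52.4 in pESCLC-FL6i and at 0 in both pESCLC-primary samples, and the other had no symbol. With a pseudocount of 5 limma called 0 of the 13 higher (5.45% of all genes), edgeR 0 (5.3%), DESeq2 7 (8.7%) and limma with the replicate number as a block 4 (6.62%). On the log2 scale the difference was 4.85 for KCTD4, 5.45 for TCERG1L and 4.64 for TACR3. VEGFD, at 11.8 and 13.1 in the pESCLC-primary samples, differed by -0.69. Without either pESCLC-primary sample limma called 0 genes in all.

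Against pESCLC-FLB2i, limma called 0 of 14495 genes in either direction (0% higher and 0% lower), with 664 at an unadjusted p below 0.05. DESeq2 on the recovered reads called 116 genes and edgeR's quasi-likelihood test 0. Of the 76 genes, 18 were tested, and of these limma called 0 higher, edgeR 0 (0% of all genes) and DESeq2 1 (0.676%). These values too had chosen the genes, and the counts are a description. TCERG1L differed by 4.58 on the log2 scale and KCTD4 by 3.86. The standard error of these 18 genes had a median of 1.31, against 0.515 over all genes tested.

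At the limits of the rule a single read decided membership. In all, 8 of the 76 genes shared the lowest value of 41.9, or 16 reads, among them MATN4 and DBX1, and 5 genes missed it at 39.3, or 15 reads, among them SLC35F4 and DRC1. At the other limit, DOCK2 had a highest other value of 14.8, in Epi-piPSC-FLB2i 2, and KCTD4 one of 14.7, at passage 3. Just outside lay CLCA1 at 15.4 and PDGFRL at 15.5, and 34 genes in all had a highest other value between 15 and 20.

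Genome positions from RefSeq on Sscrofa11.1 were found for 39 of the 43 genes with a symbol. Of these, 38 were annotated as protein-coding, and they lay on 16 chromosomes, with no more than 6 on any of them. PDIA2 and ARHGDIG were neighbors on chromosome 3, with 93 bases between them on 1 strand, and the left ends of PROKR1 and PLEK, on the same chromosome, were 188158 bases apart. No run of 3 or more of the genes was found within steps of 500000 bases, so the genes did not come from 1 region. Of the 76 genes flanking them that were not themselves on only at passage 9, 53 had at least 40 normalized counts in either passage, and 5 of these were 8-fold higher and 2 lower, with a median log2 difference of -0.14. ALS2CL, 4990 bases from TMIE and named after its values were seen, was one of them, at 147 and 2.098. Another gene overlapped 11 of the 39, most of them on the opposite strand, and reads of such pairs are uncertain. HTSeq's default counts reads of 1 strand, and whether this was the strand that the kit marks is not stated. KCTD4 overlaps GTF2F2, a general transcription factor subunit at 739 at passage 9 and 1036 at passage 3, and DOCK2 overlaps FAM196B, an earlier symbol of INSYN2B, so that a pair of the 76 genes overlapped on opposite strands. INSYN2B was not placed under its present symbol and is not counted among the 39.

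Promoters of 250 bases were read for the 38 protein-coding genes and for 19498 protein-coding genes of the annotation. The 38 were poorer in CpG, with a median ratio of observed to expected CpG of 0.488 against 0.616, and 13 of them (34.2%) had a ratio of at least 0.6 against 51.5% of all. Median GC content was 53.2% against 57.6%. Each motif was searched on both strands by exact letters. The TATA box TATAAA was found in 5 of 38 (13.2%) against 9.76% of all, CCAAT in 12 (31.6%) against 31.9%, and the GC box GGGCGG in 13 (34.2%) against 45.96%. CAGCTG, an E-box, was found in 6 (15.8%) against 13.6%, and the GATA motif AGATAA in 5 (13.2%) against 8.08%. The AP-1 site TGACTCA was found in 2 (5.26%), against 2.88%, and the TCF/LEF site CTTTGAT in 1 (2.63%), against 2.07%. TTCAGCACC, the left part of the element bound by the repressor REST, was found in 1 (2.63%, against 0.236% of all), and none held the CRE TGACGTCA (1.70% of all) or the octamer ATTTGCAT (1.24% of all). No motif was shared by most of these promoters. Among genes with a position and a value, the median length of the 38 was 19560 bases against 29474 over 13111 protein-coding genes.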

How the data were processed

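Polyadenylated RNA was read from a stranded, paired-end kit. The submitters' processing notes name TopHat2 2.1.0, DESeq2 and the build Sscrofa11.1; reads were counted on genes with HTSeq at default settings, and the default counts 1 strand, and whether it is the one the kit marks is not stated. The deposited values are a signal, namely reads per gene that DESeq2 divided by the size factor of the sample. In every sample 100% of values were whole multiples of the smallest step within 0.01 reads, which gave the reads back. Between 6193659 and 58878377 reads per sample fell on genes, and intervals and floors cover counting error only. Which annotation release was counted is not given in the sources used here.

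The genes, the 40 gene lists and the rule for genes to name were chosen with earlier results of these data known. Named were the 20 highest genes with a symbol, those in a list, the 5 highest at passage 3 and in any other sample, those next to each limit, runs of neighbors and up to 4 markers per list; other names, the classes by role and 3 added lists (cell cycle, immediate early genes and partners of the 76 genes) were set after values were seen. A few genes and promoters within these classes and lists are not reported here. Symbols matched 14151 of 19588 identifiers.

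Groups were compared on log2(normalized count + 1) by limma, whose prior variance followed a trend, over genes with at least 10 normalized counts in 2 of the 4 samples, with Benjamini-Hochberg adjustment. Nothing in the labels says that duplicates are separate cultures beyond their passage, so p-values measure the spread between these samples. DESeq2 and edgeR, on the recovered reads, other pseudocounts, filters and scalings, the replicate number as a block and samples left out were alternatives. Intervals of counts were exact Poisson intervals and those of ratios exact conditional ones, at 95%; folds against 0 reads used a floor of 3 reads. Positions, promoters and overlaps came from the RefSeq annotation of Sscrofa11.1. R 4.3.3, limma 3.58.1, edgeR 4.0.16, DESeq2 1.42.0, Python 3.11.15 and scipy 1.17.1 were used.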

Additional observations from a re-analysis of the deposited data

How the results depend on the processing

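The number of genes on only at passage 9 followed the limits set. It was 76, and became 173 with a minimum of 20 and 29 with a minimum of 80 at passage 9, 11 with a maximum of 5 and 182 with a maximum of 30 in the other samples, and 43 when the lower 95% counting limit had to reach 40, a choice made after seeing the data. Scaling by total reads gave 86 genes, 73 of them shared, and TMM 75, all shared. Leaving each other sample out of the rule, most of them chosen after seeing the data, gave 76 to 101, the highest without Lv-piPSC-F replicate 2. Pseudocounts, a lower minimum and both scalings gave 804 to 1312 genes past 8-fold between the passages, against 939. The rule fixed the sign of the log2 differences of its own genes, so only their size could vary. For AQP4, with 0 reads at passage 3, the difference of 9.62 became 7.30 with a pseudocount of 5 and 12.9 with 0.1. The difference of 5.23 for EN1, with 8 reads at passage 3, became 4.73 and 5.37. The number called between pESCLC-FL6i and pESCLC-primary was 1509, and 1280 to 1972 under other pseudocounts, filters, scalings and tools, but 0 to 1946 with 1 sample left out, 0 without either pESCLC-primary sample; the lone sample of a group was then assumed to vary like the other group. Between pESCLC-FL6i and pESCLC-FLB2i limma called 0 in every fit, also with each sample left out, edgeR 0 and DESeq2 116. With the replicate block, limma called 1638 and 0 genes in these comparisons; numbers 1 and 2 are the earlier and the later passage in both pESCLC-FL6i and pESCLC-FLB2i, which are different lines, and name no passage in pESCLC-primary, and deviations of same-numbered samples correlated at 0.41 with pESCLC-FLB2i and -0.07 with pESCLC-primary. The causes were not tested. At 0.382 reads per normalized count, the depth at passage 9 limited all values near 40.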

Other observations

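Cell cycle and immediate early genes also differed between passages 9 and 3 of pESCLC-FL6i. These lists were made after the values were seen, and 1 sample a side gives no test. Of 10 cell cycle genes found, 7 were at least 8-fold lower at passage 9 and none higher, and their sum was 3474 at passage 9 and 39423 at passage 3. TOP2A, the topoisomerase of dividing cells, was at 961 and 14170, and in the other 12 samples no lower than 10172. Of 11 immediate early genes, which respond within minutes to a stimulus, 7 were at least 8-fold higher and none lower, with sums of 12279 and 955. Of these 11, 5 also stand in the lists of MEK and ERK or of LIF and STAT3 targets, FOS and JUNB among them. NPAS4, which is in neither, is the activity-dependent factor of neurons, and it was at 812 and 7.34. No other sample exceeded 26.5 for NPAS4.

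Of 13 known partners of the genes on only at passage 9, 10 had at least 40 normalized counts in either passage, and none of these was 8-fold higher or lower. IGF1R, the receptor of IGF1, was at 1100 at passage 9 and 1698 at passage 3. IGFBP5, which binds IGF1, was at 13303 and 2528. GRIA2, the AMPA receptor subunit, was at 3057 and 741.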
